A study of Mus musculus with 6 samples.

Results

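The DNA-binding protein CTCF and the cohesin complex were followed as 10 genes, chosen by name: Ctcf, Smc1a, Smc3, Rad21, Stag1, Stag2, Nipbl, Wapal (the older symbol of Wapl), Pds5a and Pds5b. They are 10 of the 25793 genes in the count tables, and all 10 were among the 14810 genes with at least 1 count-per-million (CPM) in at least 1 library. RNA had been sequenced from primary mouse embryonic fibroblasts (MEFs), short-term cultures of connective-tissue cells, taken at E13.5 and cultured in 10% fetal bovine serum. The embryos came from matings of mice heterozygous for a mutant allele of either of 2 genes. Sptbn1 encodes beta-II spectrin, and Smad3 encodes a transcription factor that carries TGF-beta signals to the nucleus. There was 1 library for each of 6 genotypes: wild type (WT), Sptbn1+/- (Sptbn1 heterozygote), Sptbn1-/- (Sptbn1 homozygote), Smad3+/- (Smad3 heterozygote), Smad3-/- (Smad3 homozygote), and Sptbn1+/- with Smad3+/- (double heterozygote). The labels name no treatment. No genotype was replicated, so the values compare libraries only. Unless said otherwise, ranges given in parentheses are 95% intervals that cover counting error only. They are exact Clopper-Pearson intervals, except where a balance of counts between genes is compared with that of WT. Those use a normal approximation on the log scale.

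CTCF binds DNA through zinc fingers and marks many borders of chromatin loops. Cohesin is a ring of SMC1A, SMC3 and RAD21 that holds DNA strands and carries either STAG1 or STAG2 as a further subunit; it extrudes loops until it meets CTCF and, in dividing cells, holds sister chromatids together. NIPBL loads and drives the ring, WAPL releases it from chromatin, and PDS5A and PDS5B bind the ring and take part both in its release and in its stable hold. The comparisons ask how the mRNA of each of these genes stood in cells with altered beta-II spectrin or Smad3 alleles.

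The 250 bases before the transcription start were read from RefSeq (GRCm38.p6, coordinates of that build, whereas the counts were made on mm9) for 7 of the 10 genes. The promoter of Ctcf (chr8:105636288-105636537, plus strand) is shown because Ctcf is the DNA-binding member, and those of Smc3 (chr19:53600146-53600395, plus strand) and Stag1 (chr9:100643198-100643447, plus strand) because these genes had low levels in the double heterozygote. Letters run 5′ to 3′, and capitals mark matches to the motif letters searched.
Ctcf: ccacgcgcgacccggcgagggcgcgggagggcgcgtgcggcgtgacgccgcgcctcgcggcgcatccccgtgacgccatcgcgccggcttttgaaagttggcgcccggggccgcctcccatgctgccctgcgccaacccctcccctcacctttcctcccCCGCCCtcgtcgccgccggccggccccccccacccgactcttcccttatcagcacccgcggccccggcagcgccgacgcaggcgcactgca
Smc3: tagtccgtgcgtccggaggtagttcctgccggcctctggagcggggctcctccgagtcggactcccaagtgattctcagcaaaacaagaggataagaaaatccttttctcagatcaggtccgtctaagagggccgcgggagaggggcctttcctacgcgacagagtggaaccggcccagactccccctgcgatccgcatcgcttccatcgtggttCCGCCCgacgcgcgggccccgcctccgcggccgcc
Stag1: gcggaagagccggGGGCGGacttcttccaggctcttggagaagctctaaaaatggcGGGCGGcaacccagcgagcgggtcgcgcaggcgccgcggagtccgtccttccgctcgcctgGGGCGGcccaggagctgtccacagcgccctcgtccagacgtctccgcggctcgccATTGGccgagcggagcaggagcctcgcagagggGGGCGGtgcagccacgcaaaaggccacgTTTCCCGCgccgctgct
Matches on either strand were sought to TTTNNCGC (E2F), CCGGAAGT (ETS), GGGCGG (SP1/KLF), CCAAT (NFY), AAGATGGC (YY1) and CAGACA (SMAD), and to the NRF1 and CTCF core motifs. GGGCGG was present in 7 of the 7 promoters, against 32.7% of all 32851 promoters of this length, and TTTNNCGC in 2 of 7 (Stag1 and Pds5a), against 4.28%. CCAAT was found in 4 of 7, against 33.8% of all promoters. CAGACA, held by 17.1% of all promoters, was in 0 of 7, as were the ETS, NRF1, YY1 and CTCF core letters, held by 2.88%, 0.782%, 1.56% and 0.0335%. These promoters were rich in G and C: the 250 bases of Ctcf held 77.6% GC and 40 CpG pairs, those of Smc3 64.4% and 26, and those of Stag1 71.2% and 31, where the median over all promoters was 52.4% and 6. A match of letters is a description of the sequence and not of a bound site.

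Several facts of the libraries bear on every comparison. Counts on genes totalled 6856680 to 11407587 in WT, both Sptbn1 mutants and the Smad3 heterozygote, 21329087 for the Smad3 homozygote and 31125055 for the double heterozygote. Of uniquely placed reads, 40.9 to 43.3% lay on genes in the first 4 of these and 80.1% and 81.2% in the other two. Sptbn1 mRNA, listed as Spnb2, stood at 75.5% of WT in the Sptbn1 heterozygote, 54.3% in the Sptbn1 homozygote and 48.9% in the double heterozygote, and also at 71.99% in the Smad3 homozygote. Smad3 mRNA went against its labels, with levels relative to WT of 149.0% (library labelled Smad3 heterozygote), 199.3% (library labelled Smad3 homozygote) and 380.7% (library labelled double heterozygote). Which part of either gene was deleted was not given in the sources used here, so these levels may not check the labels. Xist, the RNA that silences 1 X chromosome in female cells, reached 2747 CPM in the Smad3 heterozygote and at most 16.3 CPM in the others, so that library holds RNA of a female embryo; Smc1a and Stag2 are X-linked. All 10 fibroblast markers (such as Col1a1, Pdgfra and Vim) were detected in all 6 libraries, with summed levels of 13555 to 36045 CPM. By the 1.5-fold rule given below, 1 was called higher and 7 lower than WT in the Smad3 homozygote. Of all genes tested, 24.2% were called higher and 25.2% lower there. In the double heterozygote 5 were called higher and 1 lower, against 21.6% and 19.1% of all genes tested. These shares are the background for every count of called markers in this paragraph. Markers of macrophages and leukocytes, also all 10 above 0 everywhere, summed to 1439 to 2214 CPM in 5 libraries and to 59.5 CPM in the Smad3 homozygote. In that library epithelial markers summed to 69.1 CPM, against 5.96 to 16.2 CPM in the other libraries. Neural and glial markers summed to 473 CPM there, against 80.5 to 217 CPM. Of the 5 neural and glial markers, 2 were called higher and 2 lower than WT there. Markers of dividing cells summed to 1551 to 1781 CPM in 5 libraries and to 496 CPM in the double heterozygote. The Smad3 homozygote lay within that range at 1744 CPM, although 6 of its 8 markers were called higher and 1 lower than WT. The 5 nuclear and structural RNAs looked at (Malat1, Neat1, Rn7sk, Rmrp and Rn18s) summed to 103567 to 123763 CPM in WT, both Sptbn1 mutants and the Smad3 heterozygote, but to 11561 CPM for the Smad3 homozygote and 2578 CPM for the double heterozygote. They did not all move the same way: 2 were called higher and 3 lower than WT in the Smad3 homozygote. In the double heterozygote 1 was called higher and 4 lower. In these bulk samples, fewer cells of a type and less RNA per cell cannot be told apart. The part of these differences in the results on CTCF and cohesin was not tested.

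In WT, both Sptbn1 mutants and the Smad3 heterozygote, each of the 10 genes had nearly the same level. The highest of these 4 libraries exceeded the lowest by 1.03-fold for Stag2 and by 1.16-fold for Smc1a, the extremes among the genes. A gene was called higher or lower when the whole interval of its ratio of scaled counts lay beyond 1.5-fold. By that rule 0 of the 10 genes were called in the Sptbn1 heterozygote, where 1.83% of all genes tested were (0.635% higher, 1.2% lower). The count was also 0 in the Sptbn1 homozygote, against 1.06% of all genes (0.648% higher, 0.412% lower), and 0 in the Smad3 heterozygote, against 6.1% (1.64% higher, 4.46% lower). The library labelled Smad3 homozygote and the library labelled double heterozygote carried all calls against WT: 3 of 10 genes in the first, against 49.4% of all genes tested (24.2% higher, 25.2% lower), and 6 of 10 in the second, against 40.7% (21.6% higher, 19.1% lower). The first count lies below its background and the second above it. Both counts rest on counting error alone: with intervals widened by the dispersion of the fit to all 6 libraries described at the end, 0 of the 10 genes were called in either library, and 0 between them. Among the 14810 genes tested, 1891, 1076 and 1403 were still called in the same order. That dispersion takes in the departures of these libraries themselves. The common biological coefficient of variation was 0.467 over all 6 libraries and 0.113 over the other 4. The fit to those 4 left only 1 residual degree of freedom. The widened intervals therefore cannot decide whether the counts would hold against spread between replicate libraries. The libraries with calls are those that differ in the share of reads on genes and in structural RNA, and the part of this in the calls was not tested. The median log2 ratio to WT over the 10 genes was -0.09 in the Smad3 homozygote, where that of all genes was 0.05, and -1.01 in the double heterozygote, where that of all genes was 0.06.

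**Figure D1:**
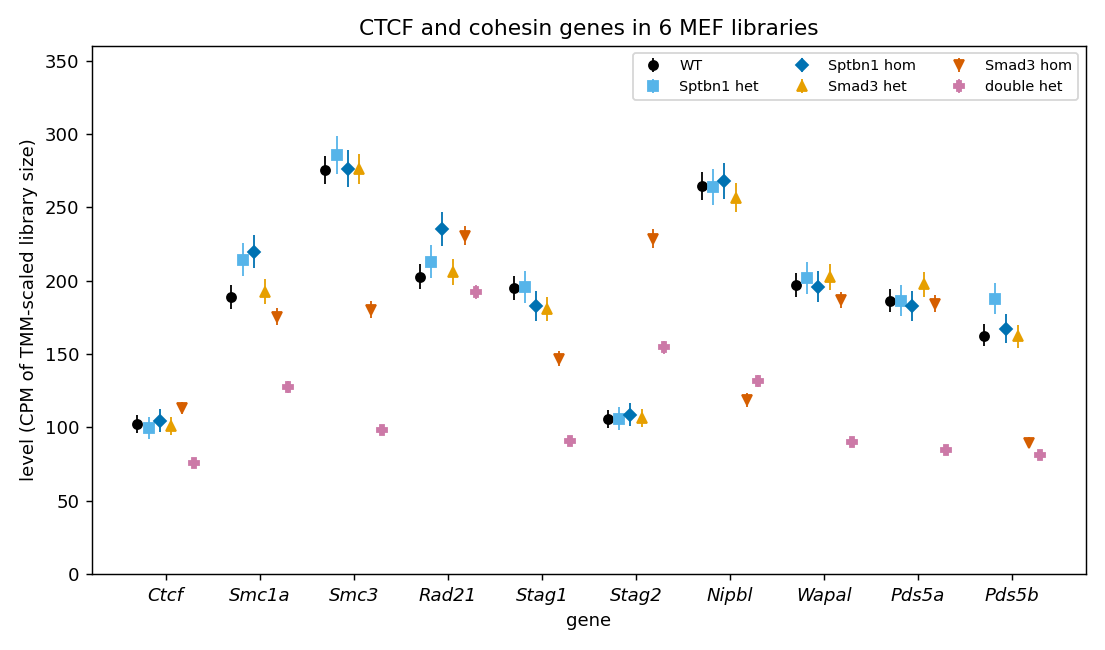
Level of each gene (vertical axis, CPM of the scaled library size) in the 6 libraries, 1 point per library with a bar for the exact 95% counting interval. WT, both Sptbn1 mutants and the Smad3 heterozygote lie together for every gene, whereas the Smad3 homozygote is highest for Stag2 (229 CPM) and the double heterozygote lowest for 8 of the 10 genes.

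Ctcf was measured at 102 CPM in WT, 99.5 in the Sptbn1 heterozygote, 105 in the Sptbn1 homozygote, 101 in the Smad3 heterozygote, 113 for the Smad3 homozygote and 75.6 for the double heterozygote, from 676 to 2549 counts. In that order of levels only the step from the double heterozygote up to the Sptbn1 heterozygote, 1.32-fold (1.21 to 1.43), lay beyond counting error. The other 5 libraries could not be told from their neighbours. Against WT, Ctcf was 1.35-fold lower (1.26 to 1.45) in the double heterozygote and was not called. It was lower there under all 5 scalings of library size run, with log2 ratios of -0.64 to -0.41. With the interval widened by the dispersion of the fit to all 6 libraries, the ratio of 0.74 had a range of 0.20 to 2.71, and with that among the 4 alike libraries alone, an alternative added after seeing the data, 0.54 to 1.02. In the Smad3 homozygote the ratio was 1.11 (1.03 to 1.19), and upper-quartile scaling turned its sign (log2 ratio -0.04). Per count of the 5 ring genes together (Smc1a, Smc3, Rad21, Stag1 and Stag2), Ctcf had 0.106 counts in WT, 0.0982 to 0.105 in the Sptbn1 mutants and the Smad3 heterozygote, 0.118 for the Smad3 homozygote and 0.114 for the double heterozygote. Ctcf was therefore not low in relation to the sum of these genes in the double heterozygote, where its balance was 1.08 times that of WT (1.00 to 1.16). This holds for the sum and not for each gene. The log2 ratio of Ctcf to WT there, -0.43, lay below those of Rad21 (-0.08) and Stag2 (0.55). It lay above those of Smc3 (-1.49), Stag1 (-1.10) and Smc1a (-0.56). Reads of Agrp, an opposite-strand neighbour that overlaps Ctcf in the GENCODE annotation, numbered at most 4 in any library, and those of Gm5914, an overlapping opposite-strand RNA, 3 to 13, though the strand setting of the counting was not given in the sources used here.

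Among the ring subunits, Smc3 differed most between libraries. Its level was 275 CPM in WT, 286 in the Sptbn1 heterozygote, 276 in the Sptbn1 homozygote, 276 in the Smad3 heterozygote, 180 for the Smad3 homozygote and 98.1 for the double heterozygote. The first 4 overlapped in their intervals, and both remaining steps were beyond counting error. Against WT, Smc3 was 2.80-fold lower (2.67 to 2.95) in the double heterozygote and was called. In the Smad3 homozygote it was 1.53-fold lower (1.46 to 1.60), short of a call under the scaling used and called with DESeq2 size factors or the upper quartile. Smc1a, the partner of SMC3 in the ring, ranged from 128 CPM in the double heterozygote to 220 CPM in the Sptbn1 homozygote, and was 1.48-fold lower (1.40 to 1.56) than WT in the double heterozygote without a call. Its level in the female Smad3 heterozygote, 193 CPM, was not separable from 189 CPM in WT. Rad21, the kleisin that closes the ring, varied least of the 10: its 6 levels lay between 192 CPM in the double heterozygote and 235 CPM in the Sptbn1 homozygote. Its ratio to WT was 1.14 (1.08 to 1.20) for the Smad3 homozygote and 0.95 (0.90 to 0.99) for the double heterozygote, with no call.

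Of the alternative subunits, Stag2 lay above WT and Stag1 below WT in the Smad3 homozygote and the double heterozygote, each with 1 call. Stag2 stood at 106, 106, 108 and 106 CPM in WT, the Sptbn1 heterozygote, the Sptbn1 homozygote and the Smad3 heterozygote, at 229 CPM in the Smad3 homozygote and at 155 CPM in the double heterozygote. It was 2.16-fold higher (2.03 to 2.31) than WT in the Smad3 homozygote, a call, and 1.46-fold higher (1.37 to 1.56) in the double heterozygote, no call. Stag1 stood at 195, 196, 183 and 181 CPM in the first 4 libraries, at 147 CPM in the Smad3 homozygote and at 90.8 CPM in the double heterozygote. It was 1.33-fold lower (1.26 to 1.40) than WT for the Smad3 homozygote and 2.15-fold lower (2.03 to 2.27) for the double heterozygote, where it was called. Counts of both genes in the same library give a balance that does not depend on how library sizes are scaled. There were 0.541 Stag2 counts per Stag1 count in WT and 0.541 to 0.594 in both Sptbn1 mutants and the Smad3 heterozygote, but 1.56 for the Smad3 homozygote and 1.70 for the double heterozygote. That balance was 2.87 times (2.65 to 3.12) and 3.14 times (2.89 to 3.42) that of WT. As a share of the summed counts of the 5 ring genes, Stag2 made up 10.9% in WT against 23.8% and 23.3% in the Smad3 homozygote and the double heterozygote, and Smc3 28.4% against 18.7% and 14.8%.

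**Figure D2:**
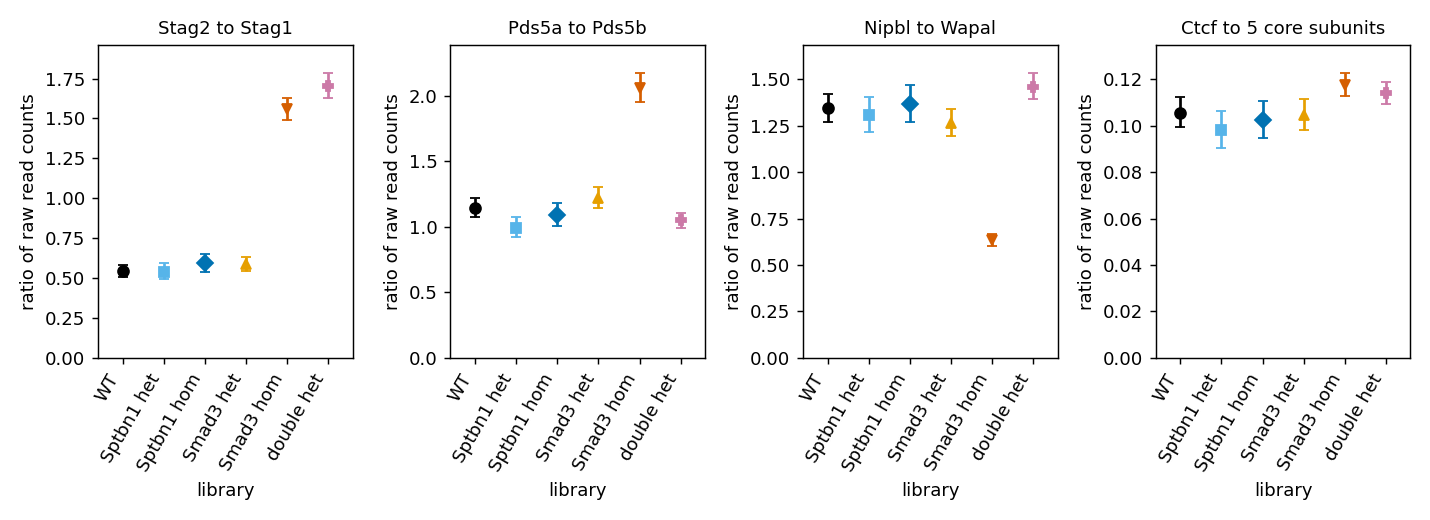
Count balances of pairs of genes within each library (vertical axes, linear from 0, counts of the first gene per count of the second), 1 point per library with an exact 95% counting interval. Stag2 to Stag1 lies near 0.54 to 0.59 in 4 libraries and at 1.56 and 1.70 in the Smad3 homozygote and double heterozygote; Nipbl to Wapal and Pds5a to Pds5b depart in the Smad3 homozygote.

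Nipbl, the loader, was lower in both of these libraries. Its level was 265 CPM in WT, 264 in the Sptbn1 heterozygote, 268 in the Sptbn1 homozygote, 256 in the Smad3 heterozygote, 119 for the Smad3 homozygote and 131 for the double heterozygote. The last 2 values lie below all others. The gene was 2.23-fold lower (2.11 to 2.35) than WT for the Smad3 homozygote and 2.01-fold lower (1.92 to 2.11) for the double heterozygote, both calls. Wapal, the releaser, was measured at 197, 202, 196, 203, 187 and 90.0 CPM in the same order. Only the double heterozygote stood apart, 2.19-fold lower (2.07 to 2.32) than WT and called. Nipbl counts per Wapal count were 1.34 in WT, 1.27 to 1.37 in the Sptbn1 mutants and the Smad3 heterozygote, 0.635 for the Smad3 homozygote and 1.46 for the double heterozygote. In the Smad3 homozygote this balance was 2.11-fold below WT (1.96 to 2.27).

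The paralogs Pds5a and Pds5b differed from each other in the Smad3 homozygote and were both low in the double heterozygote. Pds5a stood at 186 CPM in WT, 186 in the Sptbn1 heterozygote, 183 in the Sptbn1 homozygote, 197 in the Smad3 heterozygote, 184 for the Smad3 homozygote and 85.0 for the double heterozygote. For Pds5b the values were 163, 188, 167, 162, 89.5 and 81.0 CPM in the same order. Pds5b was thus low in both libraries and Pds5a in 1. Against WT in the Smad3 homozygote, Pds5b was 1.82-fold lower (1.70 to 1.94), a call, and Pds5a had a ratio of 0.99 (0.94 to 1.04). In the double heterozygote both were called, Pds5a 2.19-fold lower (2.07 to 2.32) and Pds5b 2.01-fold lower (1.89 to 2.13). The count balance of Pds5a to Pds5b was 1.15 in WT, 0.994 in the Sptbn1 heterozygote, 1.09 in the Sptbn1 homozygote, 1.22 in the Smad3 heterozygote, 2.06 for the Smad3 homozygote and 1.05 for the double heterozygote. It was 1.79 times that of WT (1.65 to 1.95) in the Smad3 homozygote and 0.87 times (0.78 to 0.96) in the Sptbn1 heterozygote, the lowest of the 6.

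The choice of WT as the reference was checked by setting each of the other alike libraries in its place, which for the Sptbn1 heterozygote, the Sptbn1 homozygote and the Smad3 heterozygote was added after seeing the data. Stag2 (higher), Nipbl (lower) and Pds5b (lower) were called in the Smad3 homozygote against 4 of 4 references. Smc3, Stag1, Nipbl, Wapal, Pds5a and Pds5b were called lower in the double heterozygote against 4 of 4, and Smc1a against 2 of 4. For each gene the highest of the 4 references exceeded the lowest by only 1.03- to 1.16-fold. The 4 comparisons are therefore not separate support. The share of all genes called is given with WT as the reference only. Ctcf was 1.32- to 1.38-fold lower in the double heterozygote with 0 of 4 calls.

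Set directly against each other, the Smad3 homozygote and the double heterozygote differed by a call in 4 of the 10 genes, where 43.1% of all genes tested were called (19.8% higher, 23.4% lower). Pds5a was 2.17-fold (2.07 to 2.28), Wapal 2.08-fold (1.98 to 2.18), Smc3 1.84-fold (1.75 to 1.93) and Stag1 1.62-fold (1.54 to 1.70) higher in the Smad3 homozygote. Ctcf was also higher there, by 0.58 on the log2 scale, with no call. Stag2 was 1.48-fold higher (1.42 to 1.54), whereas the log2 ratio of Nipbl was -0.15 and that of Pds5b 0.14.

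The double heterozygote can also be set against the summed log2 ratios to WT of both single heterozygotes. Its departure was called lower for 7 of 10 genes, where 35% of all genes tested departed (18.5% higher, 16.5% lower). The largest was that of Smc3, -1.55 ± 0.11 (log2, 95% counting error). Its level was 98.1 CPM, against the 287 CPM that the summed ratios give from the WT level. Pds5a, Pds5b and Wapal departed by -1.22, -1.21 and -1.20, Stag1 by -0.99, Nipbl by -0.96 and Smc1a by -0.78. Ctcf departed by -0.38 ± 0.17, which was no call, as were Rad21 at -0.17 and Stag2 at 0.54. In both single heterozygotes the 10 genes stood near WT, so these departures largely repeat the ratios to WT (-1.49 for Smc3). They are not separate support. The double heterozygote also differs from the libraries it is set against in the share of reads on genes. Allele combination and library make-up cannot be told apart here.

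Per kilobase of exon, which allows levels of different genes to be compared, Smc3 (median over libraries 56.8 CPM per kilobase), Rad21 (52.9) and Smc1a (40.6) had the highest medians of the 10 genes. Smc3 ranked at place 1 in WT, the Sptbn1 heterozygote and the Smad3 heterozygote, 2 in the Sptbn1 homozygote, 3 for the Smad3 homozygote and 4 for the double heterozygote. Ctcf had 26.8 CPM per kilobase, and Stag2 the lowest median, 17.0. In each of the 4 alike libraries Stag2 ranked at place 10 of the 10 genes. It ranked at place 4 in the Smad3 homozygote, with 36.3 CPM per kilobase, and at place 3 in the double heterozygote, with 24.5. Stag1 had more CPM per kilobase than Stag2 in the 4 alike libraries and less in both others.

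Transcript length and base composition moved with the results. In both the Smad3 homozygote and double heterozygote, the log2 ratio to WT fell with exon length across genes (Spearman's rho -0.19 and -0.17) and rose with GC content (0.17 and 0.37); these describe genes that share 2 libraries and are not independent. Genes were divided into 5 classes of equal size. In the class with the longest exons (at least 5542 bases), 35.5% were called lower for the Smad3 homozygote and 31.5% for the double heterozygote, against 25.2% and 19.1% of all genes tested. That class holds 6 of the 10 genes: Stag1, Stag2, Nipbl, Wapal, Pds5a and Pds5b. The class lowest in GC holds 7 of the 10, and 26.6% and 28.9% of its genes were called lower in the same libraries. Stag2, with 6305 exon bases and the lowest GC of the 10 genes (38.1%), was higher in both. The part of length and base composition in these results was not tested.

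**Figure D3:**
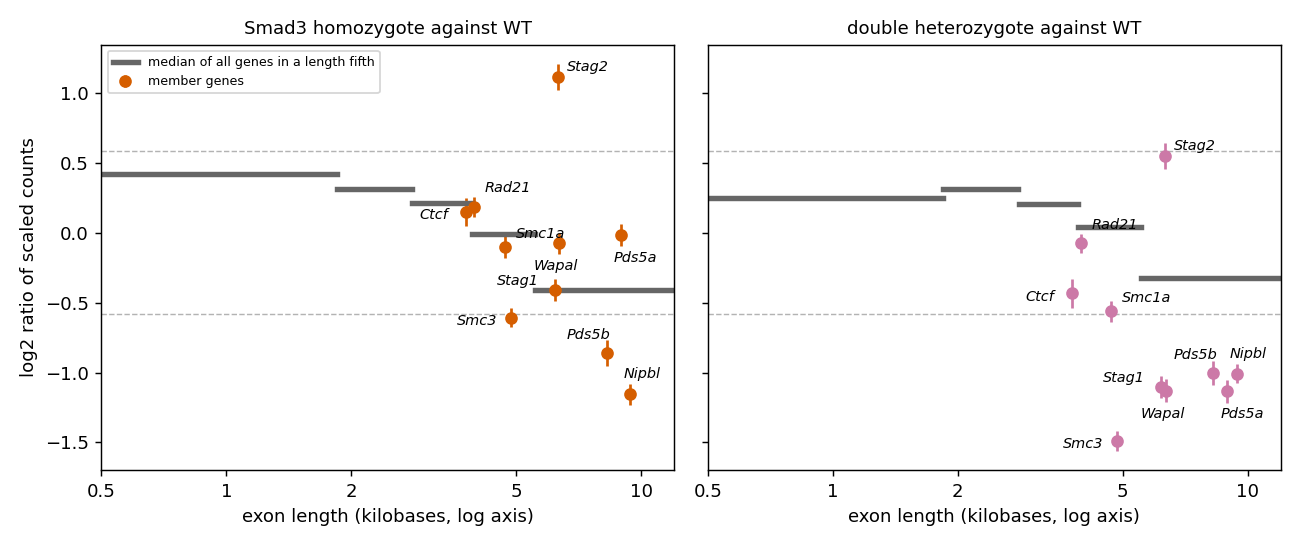
Log2 ratio to WT of each of the 10 genes (vertical axis, bars for the 95% counting interval) against exon length in kilobases (log axis), beside the median of all genes in 5 equal classes of length (grey lines; the dashed lines mark 1.5-fold). In the longest class the medians are -0.41 and -0.32, and Stag2 lies above both of these medians while Nipbl and Pds5b lie below both.

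Related gene lists were counted in the same way, with 0 calls in the Sptbn1 heterozygote, the Sptbn1 homozygote and the Smad3 heterozygote for each of the 5 lists below. Among 16 genes that regulate cohesin (acetylation, cleavage, protection and replication-coupled loading), 7 were called higher and 0 lower in the Smad3 homozygote, and 2 higher and 4 lower in the double heterozygote. Of the 8 condensin genes, which compact chromosomes in mitosis, 6 were higher and 0 lower in the first, and 1 higher and 5 lower in the second. For the 7 genes of the SMC5/6 complex, which serves DNA repair, the counts were 3 higher and 1 lower, then 1 higher and 3 lower. Among 8 other architectural factors such as Yy1 and Zfp143, 2 were higher and 2 lower in the first, and 2 higher and 1 lower in the second. The 8 markers of dividing cells were called higher in 6 and lower in 1 in the Smad3 homozygote, and lower in 7 in the double heterozygote. The share called among all genes tested was 24.2% higher and 25.2% lower in the Smad3 homozygote, and 21.6% higher and 19.1% lower in the double heterozygote. Mau2, the partner of NIPBL in the loader (listed as 9130404D08Rik and singled out after its values were seen), was 1.94-fold higher (1.75 to 2.14) than WT in the Smad3 homozygote and 2.12-fold higher (1.93 to 2.33) in the double heterozygote, where Nipbl was lower. Ctcfl, the germline paralog of Ctcf, had 0 counts in all 6 libraries.

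**Figure D4:**
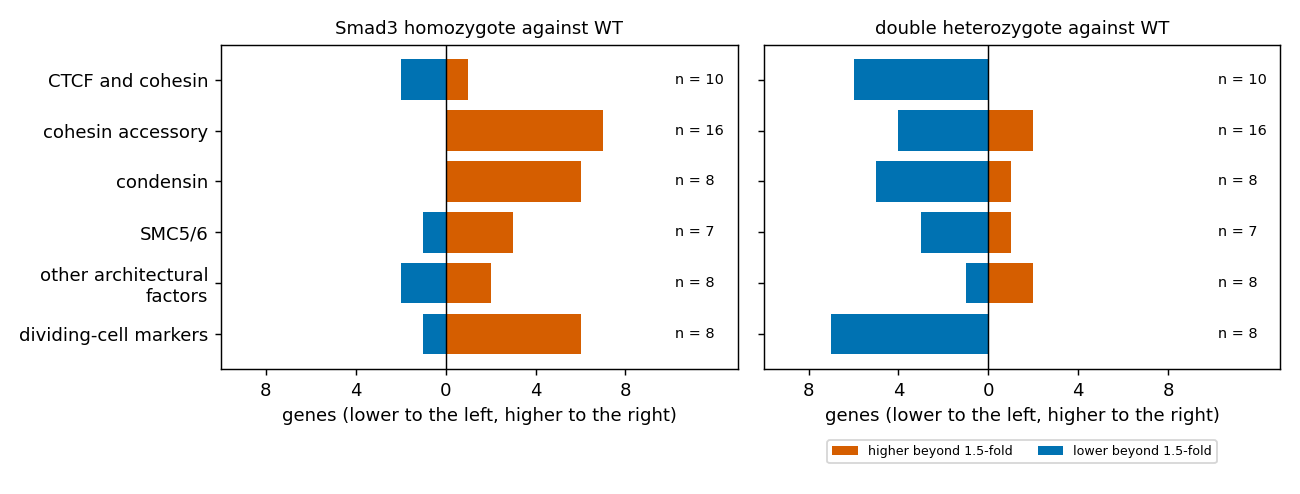
Number of genes called higher (right of 0) or lower (left of 0) than WT, by list, in the Smad3 homozygote and the double heterozygote; n is the number of genes tested in each list. In the double heterozygote 6 of the 10 CTCF and cohesin genes and 7 of 8 markers of dividing cells are called lower.

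By Pearson correlation of log2 levels over the 6 libraries, the 5 genes most like Ctcf among 7664 with at least 10 CPM everywhere were Slc4a1ap (r = 0.998), Ckap5 (0.997), Rif1 (0.996), Hmgxb4 (0.996) and Vcl (0.994). Like Ctcf, each had its highest level in the Smad3 homozygote and its lowest in the double heterozygote. These coefficients rest on 6 libraries that also differ in make-up, and serve as a description only.

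The only test the design allows fits the number of mutant alleles across all 6 libraries with edgeR's quasi-likelihood test, which had 3 residual degrees of freedom. After Benjamini-Hochberg adjustment it called 0 of 14085 genes (0%) for Sptbn1 and 0 (0%) for Smad3. At an unadjusted p under 0.05 there were 21 of 14085 genes for Sptbn1, 0 of them among the 10. For Smad3 there were 3409 of 14085, and the 2 found among the 10 are no larger a share. Those were Stag2, with 0.56 ± 0.18 (SE) on the log2 scale per Smad3 allele (edgeR adjusted p = 0.169), and Nipbl, with -0.66 ± 0.23 (edgeR adjusted p = 0.183). Of the 4 alike libraries only the Smad3 heterozygote carries a Smad3 mutant allele. In the fit to these 4 the slopes were 0.014 ± 0.125 for Stag2 and -0.041 ± 0.111 for Nipbl. The slopes over all 6 libraries thus rest on the Smad3 homozygote and the double heterozygote. Without the Smad3 homozygote the slope of Stag2 was 0.34 ± 0.25 (edgeR adjusted p = 0.60). Ctcf had -0.06 ± 0.18 per Sptbn1 allele and -0.01 ± 0.18 per Smad3 allele (edgeR adjusted p = 1.00 and 0.985). DESeq2's Wald test called 0 genes for Sptbn1 (59 at an unadjusted p under 0.05) and 14.5% of genes for Smad3, 0 of them among the 10, with a lowest adjusted p of 0.0516 for Nipbl.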

How the data were processed

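One library per genotype was sequenced from primary MEFs; per the labels, RNA was extracted with TRIZOL and 1 ug was taken into a TruSeq kit. The authors deposited unscaled read counts per gene symbol. Build mm9 and the tools HTSeq, TopHat2 2.0.10, Trimmomatic, FastQC and DESeq2 come from the submitters' processing notes; what each did, strandedness, counting mode and annotation were not given in the sources used here. Each table ends in 5 summary lines, which entered neither library sizes nor tests: reads on no gene made up 11.9 to 32.6% of records, reads placed at several sites 32.5 to 47.1% and ambiguous reads 0.025 to 0.827%.

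Library sizes were scaled with TMM (edgeR 4.0.16, R 4.3.3), and levels are CPM of the scaled size. Ratios cover the genes that reach 1 CPM in any library, have exact intervals (scipy 1.17.1) that take reads as independent molecules, and carry no p-value. Departures used 0.5 added counts and were called when beyond 1.5-fold by more than the 95% counting error. The allele-dose fit (limma 3.58.1, edgeR; threshold 0.05) took genes that reach 1 CPM in 2 or more libraries, and DESeq2 1.42.0 was an alternative. Its p-values measure the spread between these 6 libraries around an equal effect per allele. The pair rule and the fit were tested on simulated data. Exon lengths and GC content came from the GENCODE M21 basic annotation (GRCm38), which matched 94.5% of the genes tested, and served for description and levels per kilobase only.

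The text names all 10 genes, the targeted genes and Xist as label checks, and the 5 genes most like Ctcf; genes of related lists were to be named when called in at least 3 comparisons with WT in 1 direction, which none was. Mau2, Ctcfl and the examples given for lists (Yy1, Zfp143 and marker genes) were named outside this rule, Mau2 after its values were seen. The genes and lists were chosen with earlier results of these data known. Alternatives were other scalings, thresholds, filters, wider intervals, other references, fits without each library and a fit to the 4 alike libraries.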

Additional observations from a re-analysis of the deposited data

Results flagged for a closer look

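Smc1a and Pds5b were marked because the ratio of Sptbn1 heterozygote to its reference ran in opposite directions without and with a Smad3 mutant allele. Smc1a was 1.14-fold higher (1.06 to 1.21) in the Sptbn1 heterozygote than in WT and 1.51-fold lower (1.43 to 1.59) in the double heterozygote than in the Smad3 heterozygote, and the log2 ratios differed by -0.78. Pds5b was 1.15-fold higher (1.07 to 1.24) in the first pair and 2.001-fold lower (1.88 to 2.13) in the second, and its log2 ratios differed by -1.21. There is 1 library per genotype, so the difference was not tested.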

How the results depend on the processing

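Where the 10 genes had calls, other scalings, filters and references gave 3 to 4 in the Smad3 homozygote, 6 to 7 in the double heterozygote, 4 between these libraries and 7 departures. Intervals that took in the allele-dose dispersion left 0 calls in the Smad3 homozygote, 0 in the double heterozygote and 0 between these libraries. A threshold of 2-fold left 2, 4 and 1 calls in the same order and 4 departures. Intervals widened by the dispersion of the 4 alike libraries left 2, 4 and 2 calls, against 5624, 4235 and 4473 of all 14810 genes tested. In the allele-dose fits Ctcf changed sign: Ctcf per Sptbn1 allele was 0.031 without the double heterozygote and 0.016 in the 4 alike libraries (-0.28 to 0.031 over fits that left out 1 library), and Ctcf per Smad3 allele was 0.081 without the double heterozygote (-0.25 to 0.081, the first without the Smad3 homozygote). Over the same fits the slope per Smad3 allele was 0.34 to 0.77 for Stag2 and -0.93 to -0.56 for Nipbl. Among uncalled log2 ratios of the Smad3 homozygote to WT, the upper quartile turned Ctcf (0.15 to -0.04) and Rad21 (0.19 to -0.0025), and total counts turned Wapal (-0.08 to 0.015) and Pds5a (-0.017 to 0.07); ratios close to 0 in the alike libraries changed sign too. The 10 genes had 0 calls in every allele-dose fit run.

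Over all genes, upper-quartile scaling shifted log2 ratios by -0.19 (Smad3 homozygote) and -0.20 (double heterozygote), and the share of calls that were higher went from 49.0 to 39.8% and from 53.1 to 40.0%. In the order Sptbn1 heterozygote, Sptbn1 homozygote, Smad3 heterozygote, Smad3 homozygote, double heterozygote against WT, then Smad3 homozygote against double heterozygote, the main counts were 271, 157, 903, 7316, 6027 and 6387. A 2-fold threshold gave 97, 47, 434, 4852, 3473 and 3956, and intervals widened by the allele-dose dispersion 21, 12, 97, 1891, 1076 and 1403. A filter of 5 CPM gave 97 in the Sptbn1 homozygote. For Smad3 alleles DESeq2 called 2049 genes, where edgeR called 0 over all 6 libraries. In the fit to the 4 alike libraries the Smad3 slope rests on the Smad3 heterozygote alone. That library is also the only one from a female embryo, so allele and sex cannot be told apart in it. The common biological coefficient of variation was 0.467 over 6 libraries and 0.113 over 4, the latter with 1 residual degree of freedom. No paired analysis was possible because each genotype has 1 library and the labels give no replicate numbers. The lowest Ctcf count, 676, limits its ratio of Sptbn1 heterozygote to WT to a range of 0.88 to 1.07.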
